A study of Mus musculus with 2 samples.

Results

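The genes described here are the nuclear genes of oxidative phosphorylation in mouse liver, taken from the gene table by symbol. Rows whose symbol starts with Ndufa, Ndufb, Ndufc, Ndufs or Ndufv, with Sdha to Sdhd, with Uqcr or Cyc1, with Cox4 to Cox8, or with Atp5 were kept, and these were 101 of 21936 rows. Of them, 85 rows are subunits (37 of complex I, 4 of complex II, 9 of complex III, 17 of complex IV and 18 of complex V), 12 are assembly factors, 2 carry pseudogene symbols and 2 are other proteins with a shared prefix. The symbol Atp5o stands on 2 of the subunit rows.

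RNA sequencing was done on 1 liver library per genotype. The control was hnRNPK flox/flox, in which the gene for the RNA-binding protein hnRNP K is flanked by loxP sites but no recombinase is present, and the knockout was hnRNPK flox/flox Alb-Cre, in which Cre is driven by the albumin promoter and so acts in hepatocytes. The sources used here do not give the animals' age, sex or number, and with 1 library per genotype no difference below has a replicate check. The control library had 12428975 counted reads and the knockout library 12176239. Hnrnpk itself had 2559 control and 1411 knockout reads, which are 31.8 and 17.9 FPKM (reads scaled by gene length and by the reads counted in the library), a 0.567-fold ratio with a counting interval of 0.531 to 0.605. Its count covers the whole gene, the sources used here do not say which exons are flanked, and 40.6% of the 50-base windows of its transcript also occur in another gene. In such whole-tissue RNA, fewer cells of a type and less RNA per cell cannot be told apart.

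Oxidative phosphorylation is carried out by 5 protein complexes of the inner mitochondrial membrane. Complexes I and II take electrons from NADH and from succinate and pass them through ubiquinone to complex III, cytochrome c and complex IV, where oxygen is reduced to water. Complexes I, III and IV pump protons, and complex V, the ATP synthase, uses the returning protons to make ATP. Complex II is built from nuclear gene products alone, whereas the other four combine nuclear subunits with a few encoded by mitochondrial DNA. Hepatocytes are rich in mitochondria and depend on this system for the synthesis of glucose, urea and bile acids.

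Nuclear respiratory factor 1 (NRF1) is a transcription factor known for binding the promoters of many of these genes, and its palindromic motif, spelled by the capitals of the stretches printed here, was searched on both strands from 250 bases before to 50 bases after each gene start. RefSeq promoter windows on the GRCm38.p6 build were found for 80 of the 100 member symbols and for 68 subunit symbols. The motif was in a window of 5 of these 68 genes (7.35%), beside 1.07% of all 27025 genes with a window. It lay upstream of the start in 4 genes, whose stretches are shown with the motif in capitals, each read along the strand of its gene. Atp5g2 encodes subunit c of complex V and lies on the minus strand (chr15:102671055-102671114), and Atp5k encodes subunit e of the same complex on the minus strand (chr5:108434415-108434474). Cox6a1, the liver isoform of a complex IV subunit, lies on the minus strand (chr5:115349086-115349145), and Ndufa11, a complex I accessory subunit, on the plus strand (chr17:56717677-56717736).
Atp5g2: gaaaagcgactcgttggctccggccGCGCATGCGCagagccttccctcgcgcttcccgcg
Atp5k: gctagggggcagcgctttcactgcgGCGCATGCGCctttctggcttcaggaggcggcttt
Cox6a1: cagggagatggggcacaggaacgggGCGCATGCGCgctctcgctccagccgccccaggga
Ndufa11: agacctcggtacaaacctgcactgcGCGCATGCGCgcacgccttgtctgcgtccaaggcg
The log2 ratios of the carriers of the motif lay on both sides of 0, but not all could be told from equality by their counts. The log2 ratio of knockout over control was 0.15 for Atp5g2, 0.16 for Cox6a1 and 0.31 for Uqcrc1, whose motif lies after the start, and it was -0.31 for Atp5k and -0.05 for Ndufa11. The counting interval of the fold lay above 1 for Cox6a1 (1.06 to 1.18) and Uqcrc1 (1.18 to 1.29). It included 1 for Atp5g2 (0.991 to 1.24), Atp5k (0.608 to 1.06) and Ndufa11 (0.624 to 1.48). The same windows held the ETS motif CCGGAAG in 17 of the 68 subunit genes and 9.93% of all genes. That motif is the core that the NRF2 factor (encoded by Gabpa and its partners) binds. The YY1 motif AAGATGGC was in 14.7% and 3.19%, the GC box GGGCGG in 41.2% and 38.2%, and the TATA box TATAAA in 11.8% and 15.7%. These shares describe letters in a window and were read from the reference, not from the libraries, and the motifs were chosen after the ratios were known.

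No evaluated nuclear oxidative phosphorylation gene passed the size rule used in place of a test. Only genes with 1 FPKM and 20 reads or more in the higher library were evaluated, and 90 of the 101 rows and 75 of the 85 subunit rows met this. Of the 90, 0 were at least 2-fold higher or lower in the knockout, where 3.59% of the 9563 evaluated genes were (2.48% higher and 1.11% lower). Likewise 0 were past 1.5-fold, where 11.4% of all genes were (6.15% higher and 5.29% lower). The log2 ratios, computed on scaled reads, ran from -0.54 for the assembly factor Sdhaf3 to 0.55 for the complex I core subunit Ndufs8.

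Most of the subunits lay slightly above equality. The log2 ratio was above 0 for 55 of 75 subunits, where 46.0% of all evaluated genes were above and 54.0% below 0, and the median was 0.10 beside -0.03 over all genes. The 95% counting interval of the ratio lay above 1 for 33 subunits (20.8% of all genes) and below 1 for 3 subunits (26.0% of all genes). Summed over all 85 subunit rows, 122987 control and 129803 knockout reads were counted, a share of 0.990% and 1.07% of the libraries and a 1.09-fold ratio (interval 1.08 to 1.09). Genes outside the group within the interquartile range of the evaluated subunits' lengths, 1031 to 2731 bases, had the same median of 0.10 (2150 genes). Of these 2150, 681 had intervals above 1 and 304 below 1. The intervals are not corrected for length, and they are narrower where a gene has more reads. After subtraction of the running median of genes of like length, the subunits' median was 0.03, with 40 above and 35 below 0, beside 0.00 over all genes, of which 50.0% were above and 49.6% below.

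**Figure D1:**
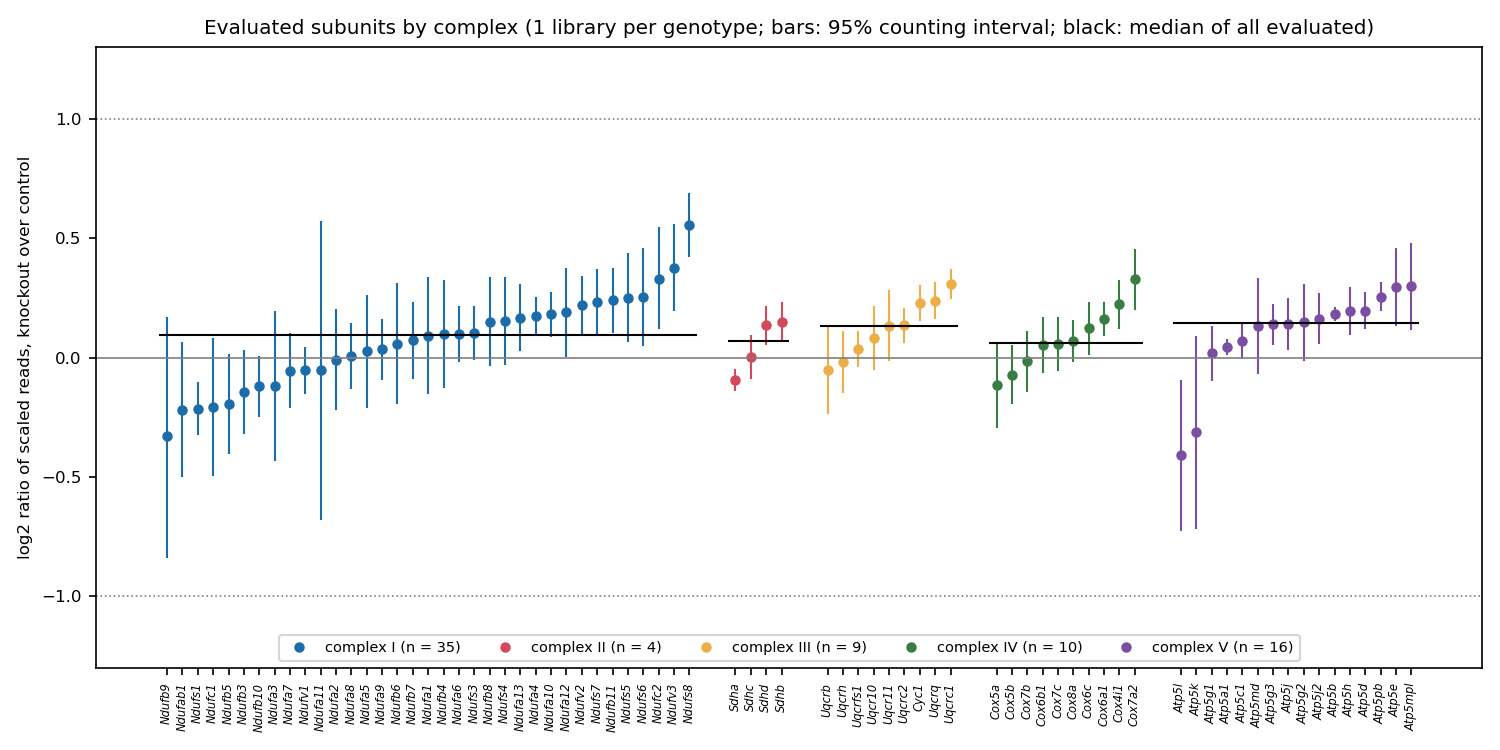
The log2 ratio of scaled reads (knockout over control, vertical axis) is plotted for evaluated subunits, ordered by ratio within complexes I to V, with bars for the 95% counting interval and black lines for each complex's median over all its evaluated subunits. All points lie between -0.41 and 0.55, inside the dotted 2-fold lines, and the 5 medians lie between 0.06 and 0.14.

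Complex I, the NADH dehydrogenase, had 36 evaluated subunits of 37, with a median log2 ratio of 0.09 and 24 above and 12 below 0. After the length correction the median was -0.00, with 17 above and 19 below 0. Summed reads were 27298 and 28762, a 1.08-fold ratio (interval 1.07 to 1.10).

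The core subunits in the hydrophilic arm of complex I did not move as a block. Ndufv1, the flavoprotein that accepts electrons from NADH, had 1686 and 1579 reads (51.5 and 49.2 FPKM; log2 ratio -0.05, corrected -0.17). Ndufv2, its iron-sulphur partner, had 1021 and 1156 reads (38.3 and 44.2 FPKM; log2 ratio 0.22, corrected 0.15). Ndufs7, which carries the last iron-sulphur cluster before ubiquinone, had 797 and 911 reads (37.3 and 43.5 FPKM; log2 ratio 0.23, corrected 0.13). Ndufs3, another subunit of that arm, had 1241 and 1295 reads (45.8 and 48.8 FPKM; log2 ratio 0.10, corrected 0.03). The counting interval of the fold lay above 1 for Ndufv2 (1.07 to 1.27) and Ndufs7 (1.07 to 1.29). For Ndufv1 (0.899 to 1.03) and Ndufs3 (0.992 to 1.16) it included 1.

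Ndufs8 (chr19:3908863-3912774, mm10, minus strand), an iron-sulphur protein of the hydrophilic arm, had the highest ratio of the evaluated members, with 779 control and 1112 knockout reads (48.5 and 70.7 FPKM). The ratio was 1.47-fold (interval 1.34 to 1.61), a log2 ratio of 0.55 that was 0.39 after the length correction, and none of its 50-base windows occurred in another gene. Ndufs1, an iron-sulphur protein of the N module, lay on the other side, with 1473 and 1235 reads (14.7 and 12.5 FPKM; 0.862-fold, interval 0.799 to 0.931). Its deposited length is 8086 bases, and its log2 ratio of -0.21 was -0.07 after the length correction. Ndufs1 was the only complex I subunit whose interval, which is not corrected for length, lay below 1.

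The 29 evaluated accessory subunits surround the core and carry no redox centre. Their median log2 ratio was 0.07, or -0.02 once corrected for length. Counting intervals lay above 1 for 9 of them (20.8% of all genes) and below 1 for 0 (26.0% of all genes). Of the 2150 genes outside the group with lengths of 1031 to 2731 bases, 681 had intervals above 1 and 304 below. At the upper end of the accessory subunits Ndufv3 had 450 and 568 reads (log2 ratio 0.38, corrected 0.34) and Ndufc2 332 and 406 reads (0.33, corrected 0.19). At the lower end Ndufb9 had 79 and 61 reads (-0.33, corrected -0.49), and its interval of 0.559 to 1.12 included 1. Ndufab1, the mitochondrial acyl carrier protein, had 231 and 193 reads (-0.22), also with an interval that included 1 (0.706 to 1.04). Ndufa8 was nearest to equality, with 873 and 852 reads (0.01). Ndufa4 was the most abundant per length, at 148 and 166 FPKM (2547 and 2796 reads; 0.18), and is also described as a subunit of complex IV; its relative Ndufa4l2 had 16 and 21 reads (0.42, interval of the fold 0.671 to 2.77).

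Complex II, the succinate dehydrogenase that also works in the citrate cycle, had the only summed ratio at equality. Its 4 genes had 14344 and 13947 reads in all (log2 ratio 0.00, interval of the fold 0.977 to 1.02). The median log2 ratio of 0.07 was -0.03 once corrected for length. The 4 genes did not lie together. Sdha, the flavoprotein that oxidises succinate, had 7673 and 6985 reads (150 and 139 FPKM; 0.936-fold, interval 0.906 to 0.967), whereas its partner Sdhb, the iron-sulphur protein, had 2343 and 2527 reads (84.2 and 92.7 FPKM; 1.11-fold, interval 1.05 to 1.17). Of the membrane anchors, Sdhd had 2349 and 2507 reads (154 and 167 FPKM; log2 ratio 0.13) and Sdhc 1979 and 1928 reads (49.0 and 48.7 FPKM; 0.00). Sdha had the most reads of the complex, and without it the summed log2 ratio was 0.10 instead of 0.00.

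Complex III, the cytochrome bc1 complex, had the highest summed ratio, with 17772 and 19457 reads (1.13-fold, interval 1.10 to 1.15). All 9 genes were evaluated, 7 above and 2 below 0, with a median of 0.13, or 0.03 once corrected for length. Uqcrc1, the larger core protein, contributed most, with 3700 and 4453 reads (72.0 and 88.4 FPKM; 1.24-fold, interval 1.18 to 1.29), and its log2 ratio of 0.31 was also 0.31 after the correction. Uqcrq, a small membrane subunit, had 2463 and 2825 reads (0.24). The Rieske iron-sulphur protein Uqcrfs1 had the highest level per length, 170 and 173 FPKM, with 2878 and 2869 reads (0.04), followed by the small subunit Uqcr10 at 125 and 131 FPKM (0.08). The hinge protein Uqcrh had 993 and 952 reads (-0.02) and the ubiquinone-binding Uqcrb 489 and 459 (-0.05), both with intervals that included 1. Without Uqcrc1 the summed log2 ratio of the complex was 0.13 instead of 0.17.

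Complex IV, cytochrome c oxidase, has several subunits with a form made in most tissues or in liver and another made in muscle, lung or testis. The 10 evaluated genes were the general or liver forms, with a median log2 ratio of 0.06, or -0.05 once corrected for length. Of them 7 were above and 3 below 0, and after the length correction 4 were above and 6 below. Summed over all 17 rows of the complex, 13994 and 14625 reads were counted (1.07-fold, interval 1.05 to 1.10). Cox7a2, the liver form of subunit 7a, was highest with 911 and 1112 reads (77.6 and 96.7 FPKM; 1.26-fold, interval 1.15 to 1.37), followed by the regulatory subunit Cox4i1 with 1484 and 1684 reads (0.22) and the liver form Cox6a1 with 2999 and 3262 reads (0.16). The lowest were the matrix-side subunits Cox5a, with 543 and 487 reads (-0.12, corrected -0.19), and Cox5b, with 1126 and 1042 reads (-0.07, corrected -0.19). Cox7b followed with 1021 and 982 reads (-0.02, corrected -0.18). The intervals of these genes all included 1, but they are not corrected for length. Cox6a1 (344 and 382 FPKM) and Cox8a (279 and 290 FPKM; 0.07) had the highest levels per length in the complex, and Cox6b1 had 1212 and 1222 reads (0.05).

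The 7 tissue isoforms were at or near 0 reads in both libraries. Cox7b2 and Cox8c, known from testis, had 0 reads in both, and their testis counterpart Cox6b2 had 1 and 8 reads, an 8.23-fold ratio with an interval of 1.10 to 365. The lung isoform Cox4i2 had 0 and 5 reads, which is 1.71-fold if the control is set to a floor of 3 counts. The counting interval of its fold had a lower bound of 0.943 and so included 1. The heart and skeletal muscle isoforms Cox6a2, Cox7a1 and Cox8b had 3, 5 and 3 control reads and 1, 4 and 0 knockout reads. Of the 5 striated muscle markers, which include Cox6a2, all had reads in the control (200 summed) and Acta1, Ckm, Myh4 and Tnnt3 had 0 in the knockout (1 summed read); their part in the muscle isoform counts was not tested. Together the 7 isoforms gave 12 and 18 reads, against 13982 and 14607 for the 10 general and liver forms. Cox7a2l, a relative of subunit 7a that takes part in joining complexes III and IV, had 1212 and 1298 reads (0.14).

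Cox5b has a near copy that the table counts as well. Its row is Cox5b-ps, whose symbol marks a pseudogene although the GENCODE annotation lists it as protein coding, on chromosome 13 (chr13:21501029-21501418, mm10, minus strand), while Cox5b is on chromosome 1. Over the 390 bases of coding sequence the pair was 99.2% identical, and bases 105 to 254, counted from the A of the start codon, are shown with the 3 differing positions in capitals.
Cox5b: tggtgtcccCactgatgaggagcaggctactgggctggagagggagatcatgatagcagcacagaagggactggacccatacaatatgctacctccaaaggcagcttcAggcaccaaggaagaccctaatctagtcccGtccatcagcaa
Cox5b-ps: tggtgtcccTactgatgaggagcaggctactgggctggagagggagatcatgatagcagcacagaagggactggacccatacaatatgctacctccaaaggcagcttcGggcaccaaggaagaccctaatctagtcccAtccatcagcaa
With the Cox5b base first, the differences are C114T, A213G and G243A. Cox5b-ps had 68 and 52 reads (log2 ratio -0.34, interval of the fold 0.537 to 1.15), beside 1126 and 1042 for Cox5b, and 61.9% of its windows occur in Cox5b. The sources used here do not say how the counting divided such reads.

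Complex V, the ATP synthase, held the most reads, with 49579 and 53012 (1.10-fold, interval 1.09 to 1.11). Of 16 evaluated subunits, 14 were above and 2 below 0, with a median of 0.14, and after the length correction 13 were above and 3 below with a median of 0.08. The 5 subunits of the F1 head and central stalk were all above 0, with 36158 and 38359 reads (1.09-fold, interval 1.08 to 1.11). The catalytic beta subunit Atp5b had 16509 and 18222 reads (313 and 353 FPKM; 1.14-fold, interval 1.11 to 1.16). The alpha subunit Atp5a1, which forms the same ring, had 13689 and 13720 reads (351 and 359 FPKM; 1.03-fold, interval 1.01 to 1.06), so that the partners' intervals did not overlap. Atp5e, the epsilon subunit of the central stalk, had 575 and 686 reads (0.30).

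In complex V the small membrane subunits spread furthest, with log2 ratios from -0.41 to 0.30. The F1 subunits ran from 0.04 to 0.30. The evaluated peripheral stalk genes ran from 0.14 to 0.26 and the subunit c genes from 0.02 to 0.15. The peripheral stalk, which holds the head still, had 6758 and 7645 reads (1.16-fold, interval 1.13 to 1.20), led by its subunit b gene Atp5pb with 3854 and 4473 reads (75.5 and 89.5 FPKM; 1.19-fold, interval 1.14 to 1.25). The small proteolipid Atp5mpl had 460 and 550 reads (30.4 and 37.1 FPKM; log2 ratio 0.30). The subunit e gene Atp5k had 120 and 94 reads (-0.31) with an interval of 0.608 to 1.06. Atp5l, which encodes subunit g, had 198 and 145 reads (0.753-fold, interval 0.604 to 0.938), the lowest ratio of the evaluated subunits, and 84.8% of the windows of its transcript also occur in 14 other genes, 12 of them pseudogenes. Without Atp5b the summed log2 ratio of the complex was 0.11 instead of 0.14.

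Subunit c, which forms the proton-driven ring, is encoded by 3 genes whose products differ in the part that is removed on import. The final 237 bases, the stop codon included, translate to the same peptide in all 3, while the bases were 84.8% identical between Atp5g1 and Atp5g2, 78.5% between Atp5g1 and Atp5g3, and 77.2% between Atp5g2 and Atp5g3. The first 60 of these bases show how reads of the 3 genes can be told apart, with the 18 positions that differ in capitals.
Atp5g1: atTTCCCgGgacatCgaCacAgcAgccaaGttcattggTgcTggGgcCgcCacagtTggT
Atp5g2: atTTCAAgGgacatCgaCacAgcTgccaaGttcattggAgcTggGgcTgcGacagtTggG
Atp5g3: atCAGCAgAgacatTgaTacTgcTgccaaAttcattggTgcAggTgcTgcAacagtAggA
These genes lie on chromosomes 11, 15 and 2. Atp5g3 was the main form in both libraries, with 2205 and 2360 reads (81.3 and 88.9 FPKM; log2 ratio 0.14), followed per length by Atp5g2 with 607 and 654 (29.2 and 32.1 FPKM; 0.15) and Atp5g1 with 1252 and 1232 (20.5 and 20.6 FPKM; 0.02). The order was the same in the knockout, and together they gave 4064 and 4246 reads (1.07-fold, interval 1.03 to 1.12).

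The subunits were among the more abundant transcripts of the liver. Their median level was 49.0 FPKM in the control and 49.9 FPKM in the knockout, beside 5.27 and 5.08 FPKM over all evaluated genes, and 44 and 47 of the 75 (58.7% and 62.7%) lay in the top 10% of genes. Within complex I the control levels ran from 2.70 FPKM for Ndufab1 to 148 FPKM for Ndufa4, a 55.0-fold range, and in complex IV from 20.8 FPKM for Cox5a to 344 FPKM for Cox6a1. The order of levels changed little between the libraries, with r = 0.995 and rho = 0.992 across the 75 subunits on the log2 FPKM scale, a description across genes that share the libraries and the gene lengths.

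**Figure D2:**
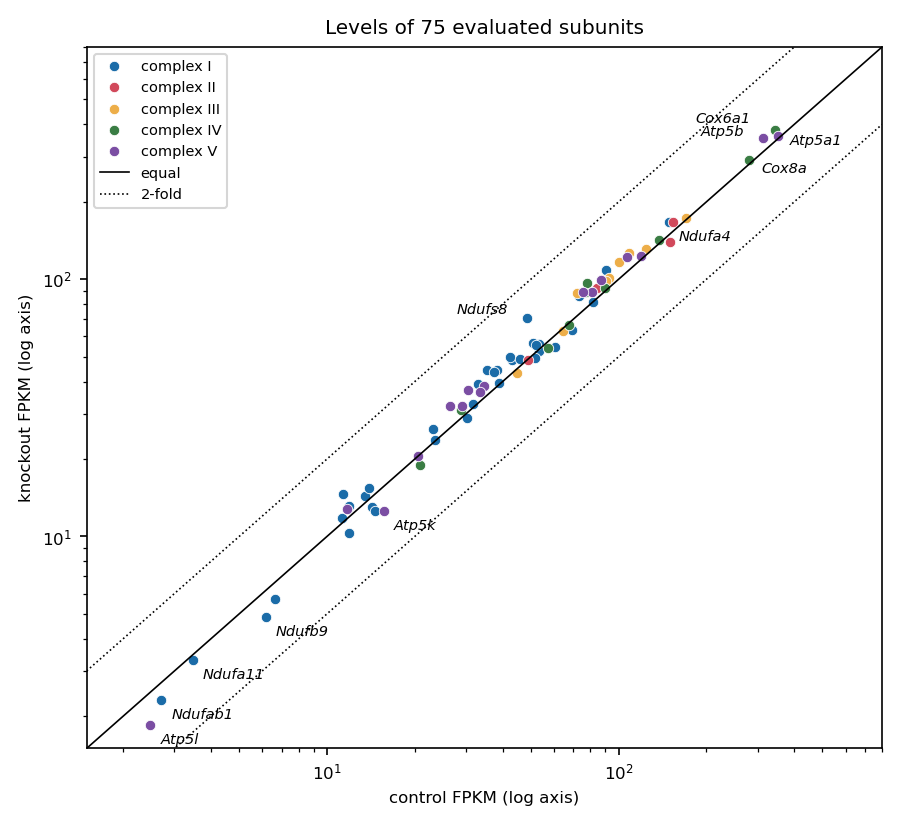
Each point is 1 of the 75 evaluated subunits, with its FPKM in the control on the horizontal axis and in the knockout on the vertical axis, both log axes, coloured by complex. The points follow the line of equality from Atp5l (2.47 and 1.85 FPKM) to Cox6a1 (344 and 382 FPKM), and all lie between the dotted 2-fold lines.

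Gene length bears on both the levels and the ratios. The authors' length for a gene equals the union of all its annotated exons in GENCODE M21 for all 101 members, so every annotated exon, used or not, enters a gene's FPKM. Atp5l is given 6443 bases in the table while its reference transcript has 544, and its control level was 2.47 FPKM with the deposited length and 29.3 with that transcript. In complex V the highest control level over the lowest was 142 with deposited lengths and 32.4 with reference transcripts, and the highest gene was then Atp5b in place of Atp5a1.

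Ratios in these libraries also drifted with length across the whole table. Genes outside the group had a median log2 ratio of 0.14 in the shortest 10% (348 to 1746 bases), falling to -0.16 in the longest (9603 to 41619 bases), and across all 9563 genes the ratio and log2 length had r = -0.21 and rho = -0.27. The subunits are short, with a median of 1718 bases beside 4307 over all genes. The 45 subunits under 2000 bases had a median log2 ratio of 0.09, beside 0.12 for other genes of that size, and of -0.02 after the correction. The 20 subunits of 2000 to 4000 bases had 0.14, beside 0.04, and 16 of them were above 0 after the correction (median 0.08). The 10 from 4000 bases had -0.04, beside -0.10, and 0.00 after the correction. Among the 75 subunits alone the ratio and log2 length had r = -0.09 and rho = 0.02.

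**Figure D3:**
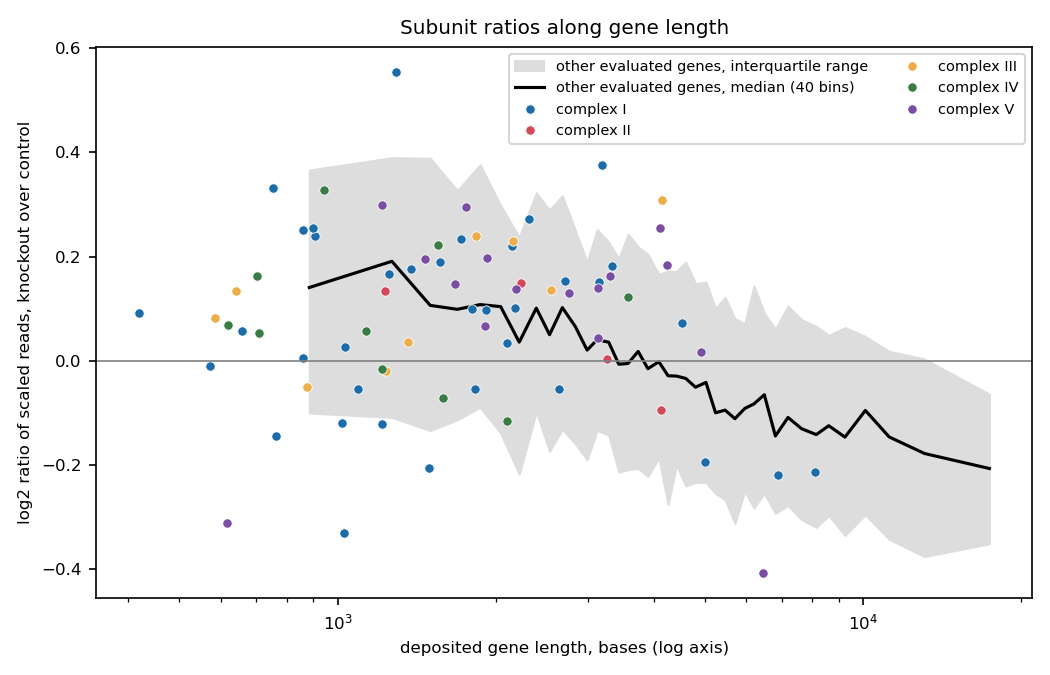
The log2 ratio of scaled reads (knockout over control, vertical axis) is plotted against deposited gene length in bases (log axis) for the 75 evaluated subunits, coloured by complex, over the median (black line, 40 bins) and interquartile range (grey) of all other evaluated genes. The line starts at 0.14 among the shortest genes and ends at -0.21 among the longest, and most subunits lie on the left, where it is above 0.

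Higher ratios went with more reads. The 29 subunits with at least 2500 summed reads had a median log2 ratio of 0.14, with 26 above 0, the 25 with 1000 to 2500 reads had 0.08 with 18 above, and the 21 below 1000 reads had 0.03 with 11 above. The medians after the length correction were 0.06, 0.00 and -0.09. Over all evaluated genes the 3 read classes had medians of -0.01, -0.04 and -0.03. Across the 75 subunits the ratio and log2 summed reads had r = 0.39 and rho = 0.31, and these points share the libraries and their counting error.

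Apart from the tissue isoforms of complex IV, 4 rows fell short of the minimum level or count in both libraries, and the transcripts of these share sequence with other genes. Of the 7 tissue isoforms that fell short, 6 shared no window. Atp5o encodes the oligomycin sensitivity-conferring protein at the top of the peripheral stalk, and its row had 14 and 10 reads (0.571 and 0.416 FPKM), while its second row, an overlapping gene record on chromosome 16, had 0 and 0. Of their 50-base windows 50.3% and 89.8% occur in another gene, each other included. Ndufb2, a complex I accessory subunit, had 43 and 42 reads (0.615 and 0.613 FPKM), with 33.5% of windows shared. It met the count minimum and fell short on FPKM only. Its deposited length is 5628 bases, while its reference transcript has 455, with which its levels were 7.60 and 7.58. The parts of length and of shared sequence in the shortfall were not tested. The assembly factor Sdhaf1 had 1 and 0 reads, with 69.0% shared, all with E130208F15Rik, which had 0 reads in both. High sharing did not always go with few reads: all windows of the Atp5g2 reference transcript occur in a pair of pseudogenes, and it had 607 and 654 reads. The sources used here do not say how reads that match several genes were treated.

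The 35 evaluated subunits with at most 1% of windows shared had a median log2 ratio of 0.15, with 30 above and 5 below 0. The 22 with 1 to 20% shared had 0.03, and the 18 above 20% had 0.11. Other genes in the same classes had -0.03, -0.05 and 0.04. After the length correction the subunit medians were 0.06, -0.04 and 0.02.

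**Figure D4:**
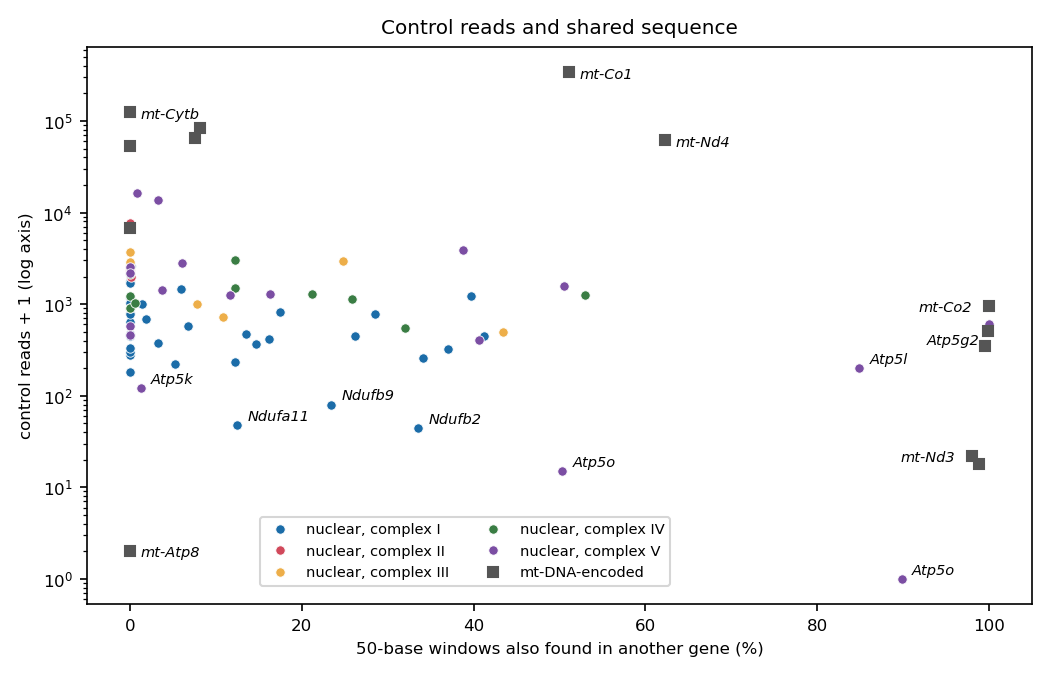
Control reads plus 1 (log axis) are plotted against the percentage of 50-base windows of a gene's reference transcript that occur in another gene, for nuclear subunits without the tissue isoforms (circles, by complex) and for genes of mitochondrial DNA (squares). One Atp5o row (0 reads) and mt-Nd3 (21 reads) lie at the lower right, the other Atp5o row (14 reads) lies low in the middle, mt-Co2 (963 reads) is at the right edge, and mt-Cytb (124237 reads) is at the upper left.

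The subunits encoded by mitochondrial DNA lay on the other side of equality from most nuclear subunits. Of the 13 genes 11 were evaluated, and 0 passed the 2-fold rule. Of the 11, 10 were below 0 (54.0% of all genes) and 7 had counting intervals below 1 (26.0% of all genes). These 7 had at least 5345 reads in each library, where intervals are narrow, as for mt-Nd1 at 0.985-fold (0.973 to 0.997). The median log2 ratio of the list was -0.16, beside 0.10 for the nuclear subunits. Summed reads were 736266 and 630270, which are 5.92% and 5.18% of the libraries (0.880-fold, interval 0.878 to 0.883). After the length correction all 11 were below 0, with a median of -0.27. mt-Nd5, a proton-pumping complex I subunit, was lowest with 64834 and 48307 reads (-0.38), and mt-Cytb, the haem protein of complex III, had 124237 and 99845 (-0.27). mt-Co1, the catalytic subunit of complex IV, had 340367 and 295673 reads (-0.16), and mt-Nd1 of complex I had 52983 and 50732 (-0.02).

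Sharing of sequence touches this list as well. The 5 genes with over 90% of windows shared, mt-Co2, mt-Co3, mt-Atp6, mt-Nd3 and mt-Nd4l, had 1855 and 1776 reads in all (0.985-fold, interval 0.922 to 1.05), and mt-Atp6 had the highest ratio of the evaluated genes of the list (346 and 359 reads; 0.09). The 6 genes with at most 10% shared had 332612 and 276875 reads (0.856-fold, interval 0.852 to 0.861). The nuclear and mitochondrial sums thus differed in direction by far more than their counting error, but counting error is the only error that these libraries allow to be computed.

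**Figure D5:**
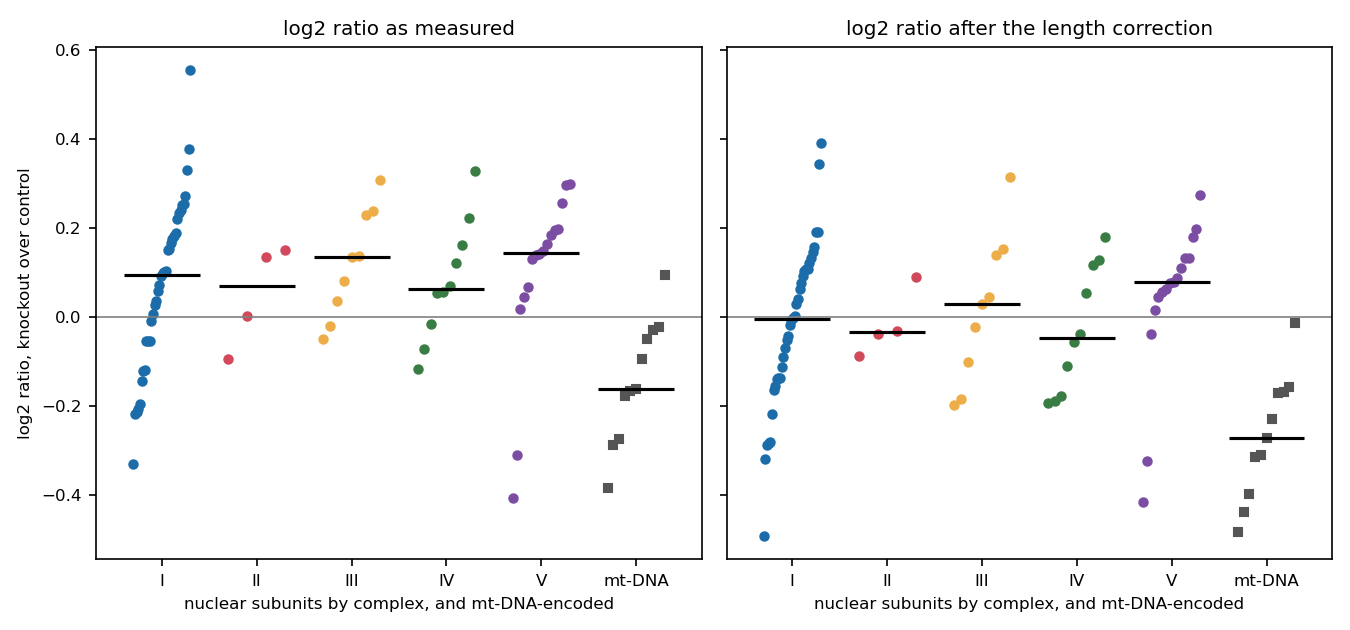
The log2 ratio (knockout over control) of each evaluated nuclear subunit by complex and of each evaluated gene of mitochondrial DNA is plotted as measured (left) and after the length correction (right), with black lines for medians. The mitochondrial genes have medians of -0.16 and -0.27, below those of all 5 nuclear groups, which run from 0.06 to 0.14 as measured and from -0.05 to 0.08 after the correction.

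Assembly factors, which build the complexes without staying in them, lay about equality. Of the 11 evaluated Ndufaf and Sdhaf genes 4 were above and 7 below 0, with a median of -0.01, or -0.07 once corrected for length, and 2166 and 2011 reads over all 12 (0.955-fold, interval 0.898 to 1.01). Ndufaf5, a complex I assembly factor, had 49 and 68 reads (0.51, interval of the fold 0.974 to 2.10), and Sdhaf3, which helps to mature Sdhb, had 87 and 58 (-0.54, interval 0.483 to 0.967). Ndufaf4, also for complex I, had 600 and 465 reads (-0.33), and this gene lay outside the naming rule and was picked after its values were seen. Among 38 evaluated assembly factors under other symbols 0 passed the rule and the median was 0.00, with Fastkd5, a mitochondrial RNA-processing protein, highest (42 and 56 reads; 0.45) and Fmc1, a complex V assembly factor, lowest (95 and 70 reads; -0.40).

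The transcription and replication factors known to drive mitochondrial biogenesis lay mostly below 0. Of 19 evaluated, 6 were above and 13 below 0, where 54.0% of all evaluated genes were below. These genes are long, with a median of 5687 bases. Of the genes outside the group from 4000 bases, 3321 of 5189 were also below 0. After the length correction 6 factors were above and 13 below 0, where 49.6% of all genes were below. The median was -0.15, or -0.13 once corrected for length, and 0 passed 2-fold. The coactivator Ppargc1b was lowest, with 108 and 70 reads (-0.58), and Gabpb1, a subunit of the NRF2 factor, was highest, with 104 and 156 reads (0.62).

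Other mitochondrial pathways gave medians close to or above that of the subunits. The 14 citrate cycle enzymes had a median log2 ratio of 0.17, or 0.16 once corrected for length, with 10 above 0 and 0 past 2-fold, from Dlst, a component of the 2-oxoglutarate dehydrogenase (2871 and 2479 reads; -0.17), to Idh2, the NADP-dependent isocitrate dehydrogenase (1182 and 1878 reads; 0.71). The 16 evaluated genes of electron carriers and coenzyme Q synthesis had a median of 0.15, with Coq6, a coenzyme Q hydroxylase, at 178 and 267 reads (0.62). In that list 1 gene passed the rule: Etfb, the beta subunit of the electron transfer flavoprotein, had 26 and 9 reads (0.356-fold, interval 0.147 to 0.784), and 67.3% of its windows are shared with other genes. The 15 genes of import, porin and chaperones had a median of 0.06, from the porin Vdac1 (2132 and 1835 reads; -0.18) to the import subunit Timm50 (391 and 506 reads; 0.41).

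The tissue composition of the libraries was read from marker lists. All 5 hepatocyte markers were present in both, with 1158961 and 1149117 summed reads (1.02-fold), as in liver. Alb gave most of that sum, with 932293 and 907740 reads (log2 ratio 0.00). The others went both ways: Apoa1 was at 1.38-fold and Ttr at 1.14-fold, and Cps1 was at 0.822-fold and Hnf4a at 0.848-fold, each with a counting interval that excluded 1. Summed cholangiocyte markers were 83 and 287 reads, stellate cell or fibroblast markers 3027 and 3842, erythroid markers 3353 and 4636, and adipocyte markers 104 and 151. Of the 5 adipocyte markers only Fabp4 was evaluated, and it gave 103 and 139 of those reads. In the erythroid sum Alas2 gave 1797 and 1888 reads (1.08-fold). The globin genes Hba-a1, Hbb-bs and Hbb-bt were at 1.59-, 1.88- and 2.41-fold. Macrophage markers were 1928 and 1500 reads and sinusoidal endothelial markers 3012 and 2605. In both of these lists 4 of 5 markers were below 0. Cd68 (1.16-fold, interval 0.870 to 1.55) and Pecam1 (1.17-fold, interval 1.02 to 1.35) were above. Of the stellate cell or fibroblast markers 4 of 5 were above 0, and Reln was below (0.884-fold, interval 0.801 to 0.975). The part of these differences in the values of the oxidative phosphorylation genes was not tested.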

How the data were processed

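The authors deposited 1 gene table with whole-number read counts, FPKM values and a gene length for both libraries. Bowtie2 2.4.2 and the mm10 genome were used, per the submitters' processing notes. The counting program, annotation, strand setting and handling of multi-mapping reads were not found in the sources used here, so overlapping, antisense and near-identical genes are uncertain. All 21936 deposited FPKM values of each library could be recomputed from count, length and total (relative tolerance 1e-06). The deposited length equalled the GENCODE M21 exon union for 21504 of the 21894 genes found there.

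Counts were scaled by library totals times TMM factors from edgeR 4.0.16 (R 4.3.3), and 0.5 was added to scaled counts for log2 ratios. Folds have nothing added and carry exact Clopper-Pearson 95% intervals, which cover counting error only. DESeq2 1.42.0 gave size factors for an alternative scaling, and no count model was fitted. With 1 library per genotype no test was possible and no p-value is given. The size rule was 2-fold among genes with at least 1 FPKM and 20 counts in the higher library. For the length correction, evaluated genes were ordered by deposited length and the running median over 401 of them was subtracted from each log2 ratio. Window sharing was computed from 1 reference transcript per member against GENCODE transcripts on either strand. Other steps used Python 3.11.15 with scipy 1.17.1, pandas 2.3.3, numpy 2.4.6 and matplotlib 3.10.9.

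The members, lists and tests were chosen with earlier results of these data known. Named per complex were the 3 highest and 3 lowest ratios (2 each in complexes II and III), the 1 nearest to 0 and the 2 highest control FPKM, with all tissue isoform sets, the highest and lowest non-subunit, and the extremes of each pathway list. Genes named for their place in a complex, shared sequence or motif were added after their values were seen. Alternatives covered scaling, the added count, filters, the fold threshold, the placement of Ndufa4, the length fit and the most-read subunit. A complex I gene that the rule names is not reported here.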

Additional observations from a re-analysis of the deposited data

How the results depend on the processing

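Scaling by total reads or DESeq2 size factors, other added counts and filters, a 1.5-fold threshold, placing Ndufa4 in complex IV and other length fits were tried, and a length correction by reference transcript was added after seeing the data. Of the alternative values of the main comparisons, 131 moved by less than the counting interval or within 1.5 times the count and 5 by more. For medians this allowance was wide, and the tally cannot show that they are stable. It was 0.18 for complex I and 0.14 for all members, beside medians of 0.09 and 0.10. A change of sign was seen in 12 of the alternative values. With every row of at least 1 read kept, 5 members passed 2-fold instead of 0. Without the most-read subunit the summed log2 ratio was 0.10 for complex II, 0.13 for complex III and 0.11 for complex V. With a straight-line length fit the corrected median of complex III was -0.12 instead of 0.03. The median over all members ran from 0.09 to 0.13, and its length-corrected value from -0.04 to 0.01. The summed log2 ratio of complex II (-0.01 to 0.10) and the length-corrected medians of all members and of complexes I (-0.05 to 0.00), II (-0.05 to 0.02) and III (-0.12 to 0.03) took either sign. Of the alternative values of single genes 687 stayed within the interval, and the other 15 were all length-corrected values. No paired analysis was possible because each genotype has 1 library and the labels give no replicate numbers, and for the same reason no replicate could be left out. The differences between the libraries may include those between mice, dissections and preparations, which cannot be told apart from genotype.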

Other observations

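Several subunit genes overlap or adjoin a neighbour that the table also counts, and the values of both are given here without a test. Atp5j, a peripheral stalk subunit with 1301 and 1394 reads, shares 11.3% of its windows with Gabpa, which encodes the DNA-binding part of the NRF2 factor and had 749 and 558 reads (log2 ratio -0.38). Cox4i1, with 1484 and 1684 reads, shares 12.2% with Emc8, a subunit of an endoplasmic reticulum membrane complex, which had 267 and 189 reads (-0.46). Atp5pb, with 3854 and 4473 reads, shares 15.6% with Wdr77, which had 141 and 111 reads (-0.30), and Ndufb11, with 827 and 949 reads, shares 7.92% with the splicing regulator gene Rbm10, which had 479 and 369 reads (-0.34). In these 4 pairs the subunit lay above 0 and its neighbour below 0. They were picked after their values were seen. Uqcrc2 and Pdzd9 also had this form, with only 7 and 6 reads for Pdzd9 (-0.17), and some other pairs did not. Mrpl47, a mitochondrial ribosomal protein gene that shares 16.2% of the windows of Ndufb5, had 130 and 142 reads (0.17) while Ndufb5 had 411 and 349 (-0.20). Donson, which shares 49.5% of the windows of the second Atp5o row, had 48 and 27 reads (-0.78), while that row had 0 and 0. Cox5b and the row Cox5b-ps were also both below 0 (-0.07 and -0.34).

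GC content also went with the ratios. Across the 75 subunits the log2 ratio and GC percentage had r = 0.27 and rho = 0.30, beside 0.13 and 0.16 across 9559 evaluated genes, as descriptions over genes that share the same 2 libraries.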
